A study of Mus musculus with 12 samples.

Results

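SLM2 (the product of Khdrbs3) is an RNA-binding protein of the STAR family that is found in neuronal nuclei and regulates alternative splicing. Proteins of this family bind RNA as dimers, and each subunit contacts a short A- and U-rich element, UWAA, where W stands for A or U. SLM2-bound RNA was mapped by eCLIP, in which protein and RNA were cross-linked by UV light, the protein was immunoprecipitated with an anti-SLM2 antibody, and the RNA fragments were sequenced. Input RNA of the same size range served as the reference. Mice were 30 days old, and the 12 libraries of the series comprise 2 eCLIP and 2 input libraries each for WT whole brain, WT hippocampus and Slm2 KO hippocampus. A whole-brain lysate came from 1 brain and a hippocampal lysate from 4 pooled hippocampi. The knockout libraries were not analysed here. For each WT tissue the authors merged both replicates into 1 peak list, so no value below carries a spread between replicates and no test over samples could be made. By the study's own sequencing summary and protocol, the hippocampal libraries held fewer unique reads and were amplified with more PCR cycles than those of whole brain, so tissue, depth and amplification cannot be told apart. Peak lists measure no expression, and the dissected tissues could not be checked against marker genes.

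The peaks described here lie in 5 genes of the presynaptic release machinery, namely Syt1, Snap25, Syn1, Syn2 and Sv2b. Neurotransmitter is stored in synaptic vesicles, which fuse with the plasma membrane when SNARE proteins of both membranes zip together, and calcium triggers that step through synaptotagmins. Syt1 encodes synaptotagmin-1, the calcium sensor of fast release. Snap25 encodes a SNARE of the plasma membrane. Syn1 and Syn2 encode synapsins, which tether vesicles in reserve clusters, and Sv2b encodes a vesicle glycoprotein. The genes were chosen by the presence of peaks, with Syt1 as the gene of this group with the most, so the number of peaks and their enrichment are given as a description. A peak belongs to a gene when its centre lies within the gene on the same strand. By this rule the 5 genes held 63 of the 2057 whole-brain peaks and 6 of the 178 hippocampal peaks, 69 of 2235 in all. Syt1 accounted for 55 of the whole-brain peaks and for all 6 hippocampal ones. In whole brain, Syn1 held 4 peaks, Snap25 held 2, and Syn2 and Sv2b held 1 each.

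The sequences printed below belong to peaks picked by set rules, such as the highest fold change, and were not picked as typical of Syt1. They are the genome sequence of the peak (GRCm38, the build also called mm10), read 5′ to 3′ on the strand of the gene with T for U. Capitals mark every UWAA, that is every TTAA or TAAA on that strand, and overlapping copies were counted separately. The first 3 are the whole-brain peaks of Syt1 with the highest log2 fold change over input.

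Syt1 peak A, chr10:108942324-108942567, minus strand: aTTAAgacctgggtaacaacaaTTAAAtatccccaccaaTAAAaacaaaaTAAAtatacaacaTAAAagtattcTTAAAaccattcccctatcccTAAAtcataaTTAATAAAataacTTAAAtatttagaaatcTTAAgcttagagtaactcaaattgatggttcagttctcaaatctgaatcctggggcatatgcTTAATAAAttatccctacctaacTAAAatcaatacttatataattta

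Syt1 peak B, chr10:108942256-108942322, minus strand: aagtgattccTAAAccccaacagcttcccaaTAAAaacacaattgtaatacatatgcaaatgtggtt

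Syt1 peak C, chr10:108556017-108556122, minus strand: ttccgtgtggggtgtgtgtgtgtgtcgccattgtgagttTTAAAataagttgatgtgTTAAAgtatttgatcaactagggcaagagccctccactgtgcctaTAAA

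Peak A was 244 nt long and contained 17 UWAA starts, and A and U made up 73.8% of its bases. It had a log2 fold change of 4.50 and a −log10 p of 17.0, both as computed by the authors for eCLIP against input, and ranked 17 among all whole-brain peaks by fold change. Peak B lay 1 nt downstream of peak A and contained 2 UWAA starts in 67 nt, with a log2 fold change of 3.58. Both lay in the first intron of Syt1, about 68.5 and 68.7 kb from the start of the gene. Peak C lay in intron 9, 454.9 kb from the start, and contained 5 UWAA starts in 106 nt at a log2 fold change of 3.52. It also held 1 copy of the longer element UUWAAAA.

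The following sequences are the hippocampal Syt1 peaks that shared bases with a whole-brain peak, and a whole-brain peak whose centre lay inside an annotated exon. The latter was tied with another Syt1 peak as the nearest to an exon. A further hippocampal peak, at chr10:108942408-108942559, lay inside peak A and spans bases 9 to 160 of the sequence printed for it.

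Syt1 hippocampal peak D, chr10:108572459-108572592, minus strand: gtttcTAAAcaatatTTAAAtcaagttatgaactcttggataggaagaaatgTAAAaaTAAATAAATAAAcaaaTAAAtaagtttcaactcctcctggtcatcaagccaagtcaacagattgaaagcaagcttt

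Syt1 hippocampal peak E, chr10:108878378-108878475, minus strand: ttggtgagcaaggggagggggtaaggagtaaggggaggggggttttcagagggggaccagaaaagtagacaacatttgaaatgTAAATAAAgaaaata

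Syt1 whole-brain peak F, chr10:108899788-108899938, minus strand: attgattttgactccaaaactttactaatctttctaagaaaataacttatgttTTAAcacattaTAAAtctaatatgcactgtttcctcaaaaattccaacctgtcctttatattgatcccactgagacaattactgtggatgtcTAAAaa

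Peak D held 8 UWAA starts in 134 nt. Several of them formed a run of TAAA repeated at 4-nt steps. Peak E differed in composition, with a G-rich first part, 2 UWAA starts near its 3′ end, 2 copies of GGWGG (GGAGG or GGTGG) and 82.7% of its bases repeat-masked in the genome. Peak F held 3 UWAA starts in 151 nt and had a log2 fold change of 2.94. Its centre lay in an exon of the retained-intron transcripts Syt1-203 and Syt1-204, which is intron 2 of the coding transcript.

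The last sequences are the peak of highest log2 fold change of each other gene, all from whole brain, whether or not it held UWAA.

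Snap25 peak, chr2:136745657-136745773, plus strand: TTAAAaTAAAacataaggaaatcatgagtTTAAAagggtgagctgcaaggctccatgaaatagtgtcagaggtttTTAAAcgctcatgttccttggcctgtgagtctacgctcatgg

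Syn1 peak, chrX:20887918-20887968, minus strand: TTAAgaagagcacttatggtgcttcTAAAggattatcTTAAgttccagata

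Syn2 peak, chr6:115173454-115173533, plus strand: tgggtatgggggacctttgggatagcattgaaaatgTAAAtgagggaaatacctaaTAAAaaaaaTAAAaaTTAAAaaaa

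Sv2b peak, chr7:75276037-75276226, minus strand: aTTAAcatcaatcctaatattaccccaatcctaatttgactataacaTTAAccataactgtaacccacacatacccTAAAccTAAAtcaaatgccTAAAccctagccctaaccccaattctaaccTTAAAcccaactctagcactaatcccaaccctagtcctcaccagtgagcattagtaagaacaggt

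The Snap25 peak held 7 UWAA starts in 117 nt, the Sv2b peak 7 in 190 nt, the Syn2 peak 5 in 80 nt and the Syn1 peak 3 in 51 nt. The Syn2 peak lay wholly in repeat-masked sequence. The Sv2b peak held no masked base.

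Syt1 held SLM2 peaks from 26.9 to 454.9 kb from its start, with long stretches free of them. The gene spans chr10:108497650-109010982 on the minus strand (513.3 kb, ENSMUSG00000035864) and its coding transcript Syt1-201 has 11 exons. Its 55 whole-brain peaks gave 10.7 peaks per 100 kb and made up 2.67% of the list. By number of whole-brain peaks Syt1 ranked 6 among the 421 protein-coding genes with a peak, of which 236 (56.1%) held a single one. Longer genes offer more sequence in which a peak can lie, and among the 47 protein-coding genes with at least 10 whole-brain peaks Syt1 ranked 5 by peaks per 100 kb, against a median of 3.20 in those genes. In hippocampus Syt1 ranked 2 among protein-coding genes, and its 6 peaks made up 3.37% of that list.

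The log2 fold change of the Syt1 whole-brain peaks ran from 2.04 to 4.50 with a median of 2.51, beside a range of 2.00 to 6.04 and a median of 2.56 over the whole list. Of the 55 peaks, 8 (14.5%) reached a log2 fold change of 3, beside 22.6% of all whole-brain peaks. The medians were close, so Syt1 had many peaks of enrichment ordinary for the list. The lower share at 3 rests on 8 peaks and is not read as a trait of Syt1. The lists keep peaks from a log2 fold change of 2 and from a −log10 IDR of 2, where the IDR (irreproducible discovery rate) measures how poorly a peak repeats between the replicates. The 3 Syt1 peaks just inside the first limit all stood at 2.04, and the peak just inside the second at 2.00. Peaks outside the limits are not in the lists used here. Whole-brain Syt1 peaks were 52 to 244 nt long, with a median of 99 nt.

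**Figure D1:**
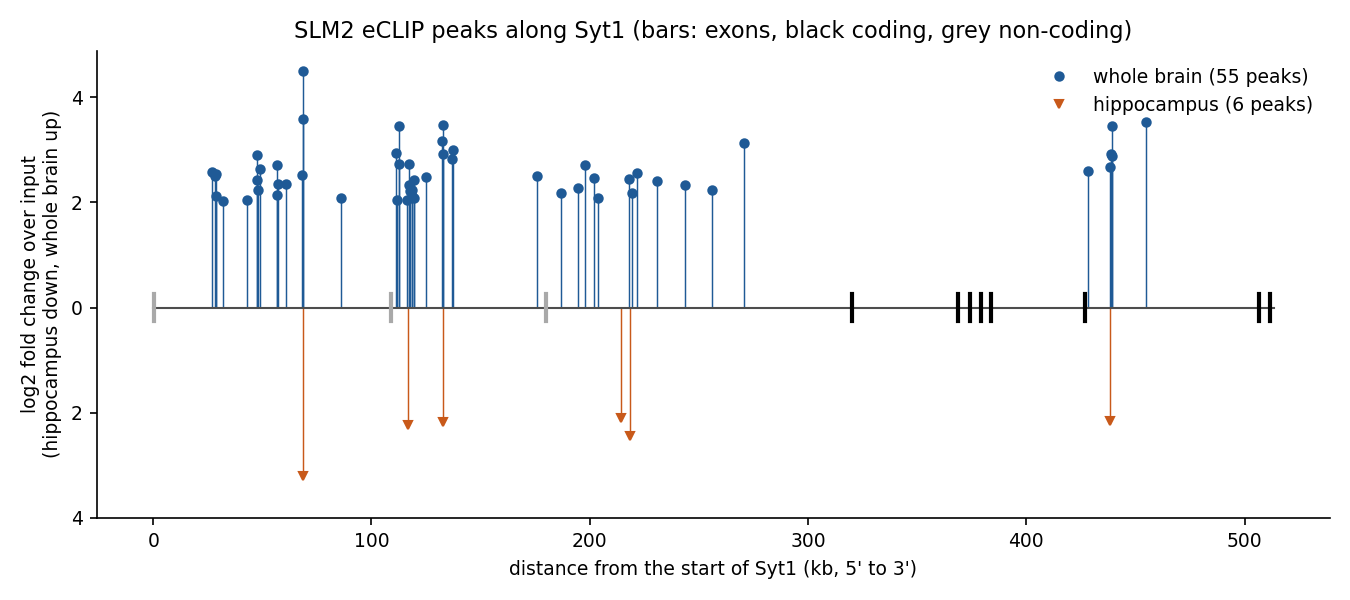
SLM2 eCLIP peaks along Syt1, with distance from the start of the gene in kb on the x axis and the authors' log2 fold change over input on the y axis. Each blue point upwards is 1 of 55 whole-brain peaks and each orange point downwards 1 of 6 hippocampal peaks, and vertical bars on the line mark exons of Syt1-201 (black with coding sequence, grey without). Peaks crowd the 3 long introns before the first coding exon, no peak lies between 270.6 and 428.1 kb, and a small group follows in intron 9.

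The peaks were unevenly divided among the introns of Syt1. All 55 whole-brain centres lay within introns of Syt1-201, and only 4 of its 10 introns held any. The first 3 introns, which precede the exon with the start codon, held 49 of the 55 peaks (89.1%, exact 95% binomial interval 77.8 to 95.9, counting error only) in 62.8% of the intronic length. The interval takes peaks as independent, and as they came in groups (below) it is too narrow for their placement along the gene. Intron 1 (108.3 kb) held 18 peaks, intron 2 (71.0 kb) held 19, intron 3 (140.0 kb) held 12 and intron 9 (79.3 kb) held 6. This corresponded to 1.66, 2.67, 0.857 and 0.756 peaks per 10 kb, so that intron 2, the shortest of the 4, was the most densely covered.

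The 6 introns without a peak added up to 109.9 kb, or 21.6% of the intronic length, and the longest of them was intron 4 with 48.5 kb. Each was shorter than every intron with a peak. UWAA itself was spread over all introns, at 1.35 to 1.84 starts per 100 positions in the introns with peaks and 1.37 to 1.60 in those without. Intron 9, which held 6 peaks, had the lowest UWAA density of all 10. The 6 hippocampal peaks fell in the same 4 introns, with 1 in intron 1, 2 in intron 2, 2 in intron 3 and 1 in intron 9.

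**Figure D2:**
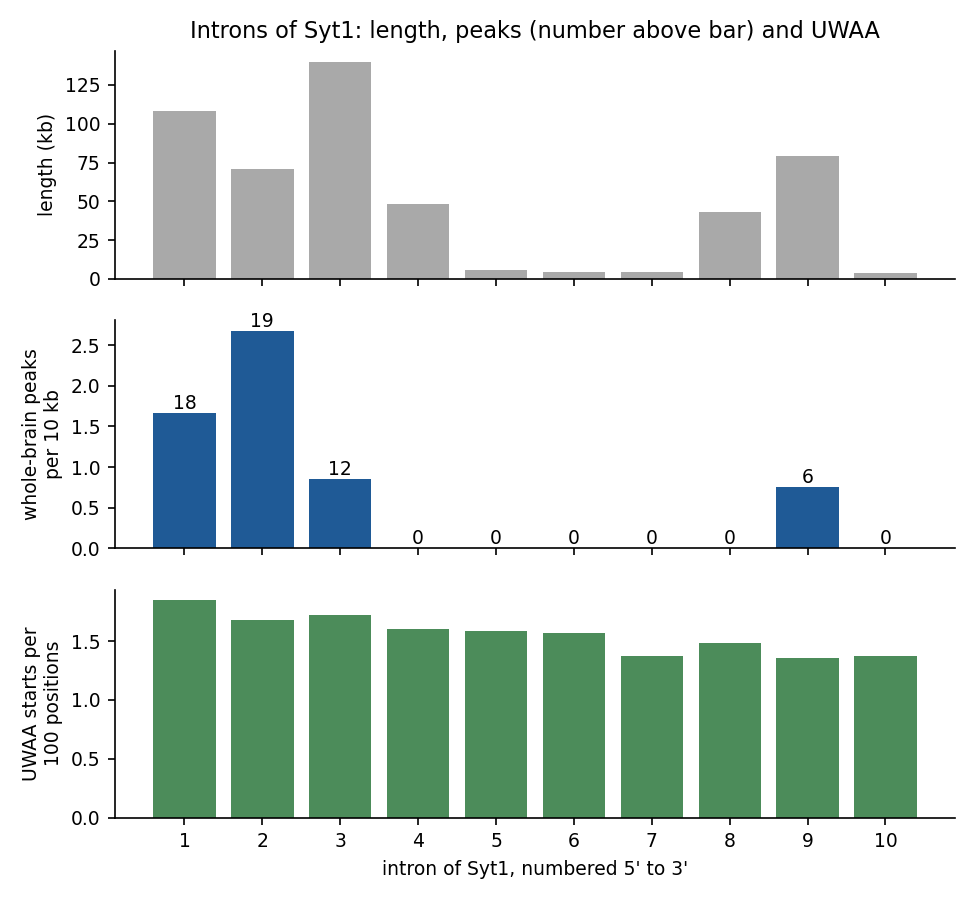
Introns of Syt1-201 numbered 5′ to 3′, with their length in kb (top), whole-brain peaks per 10 kb with the number of peaks above each bar (middle) and UWAA starts per 100 positions of the intron (bottom). Peaks occur in introns 1, 2, 3 and 9, while UWAA density stays between 1.35 and 1.84 in every intron.

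Within these introns, peaks came in groups. The median distance between adjacent centres was 1563 nt, and 24 of 54 such distances were under 1 kb, while the longest was 157.6 kb. Joining peaks whose ends lay within 100 nt left 47 sites, 39 of them of 1 peak and none of more than 2. The densest 10 kb held 12 peaks, from chr10:108891313 to chr10:108899938 in the 5′ part of intron 2, 111.1 to 119.6 kb from the gene start. Their log2 fold changes ranged from 2.04 to 3.46 with a median of 2.28. This stretch, picked for its number of peaks, held fewer UWAA than the other Syt1 peaks, with 2.21 ± 1.99 starts per 100 positions (SD over 12 peaks) beside 4.51 ± 2.37 over the other 43. Its flanks, at 1.91, were close to the 2.03 of the other peaks.

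Most peaks were far from exons. The median distance from a peak centre to the nearest exon of any Syt1 transcript was 20644 nt and the largest was 64.1 kb. The 4 peaks within 1 kb of an exon all lay at the start of intron 2. For 2 of them the centre was inside exons of retained-intron transcripts, peak F among them, and the other 2 lay 758 and 884 nt away. No peak lay within 1 kb of a coding exon, and the nearest, in intron 9, was 1035 nt from one. In intron 1, 3 centres also lay within Gm47477, an annotated gene on the same strand, so that reads there could stem from either transcript, and 1 in intron 3 lay opposite Gm47472.

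UWAA was more frequent at Syt1 peaks than beside them. Within 50 nt of the centre, the 55 whole-brain peaks had 4.01 ± 2.47 UWAA starts per 100 positions (mean ± SD over peaks), and the flanks centred 500 nt away on either side had 2.00 ± 1.21. The intronic sequence of the whole gene had 1.65. The density was above that of the peak's own flanks in 42 peaks and below it in 12. Counted around 5′ ends instead of centres, it was above in 31 and below in 24, and with 25 nt on each side it was above in 31 and below in 16. The other 1994 whole-brain peaks had 3.59 ± 2.65 at the centre and 1.79 ± 1.39 in the flanks, so the Syt1 values differed from the list by less than 1 SD over peaks. Of those 1994 peaks, 1327 were above their own flanks and 471 below, so most of the list showed this as well. Peaks of 1 gene share their source, and no test over peaks was made. Because peaks of Syt1 lie close together, 17 of the 110 flanks overlapped another peak, and without those flanks the flank density was 1.78.

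Syt1 peaks were also richer in A and U than their flanks. A and U made up 66.6% ± 7.5 of the bases at Syt1 peaks and 63.3% ± 5.7 in the flanks. From the base shares of each window alone, with bases taken as independent, 2.74 UWAA starts per 100 positions would have been counted at the peaks and 2.15 in the flanks. The counted density was 1.46 times that value at the peaks and 0.934 times in the flanks. The same ratios over the other whole-brain peaks were 1.43 and 0.921. UUWAAAA, searched as TTTAAAA and, with A in the place of W, as TTAAAAA, was rare, at 0.153 starts per 100 positions in Syt1 peaks and 0.0287 in flanks, and stood at 0.301 and 0.123 over the other whole-brain peaks.

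**Figure D3:**
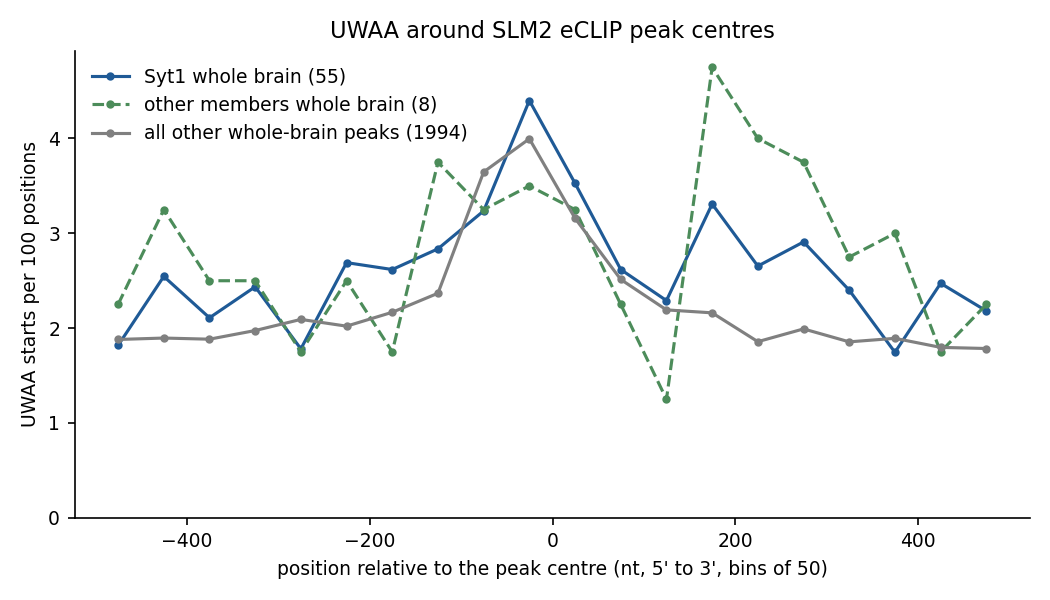
UWAA starts per 100 positions (y axis) in bins of 50 nt by distance from the peak centre in nt, 5′ to 3′ (x axis), for 55 Syt1 peaks, the 8 peaks of the other genes and the 1994 remaining whole-brain peaks. The Syt1 line reaches 4.40 in the bin just upstream of the centre, beside 4.00 for the remaining peaks, and the line of the 8 peaks moves between 1.25 and 4.75 without a maximum at the centre.

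Nearly every Syt1 peak held the element. The 101-nt window around the centre held 1 or more UWAA in 52 of 55 whole-brain peaks (94.5%, exact 95% interval 84.9 to 98.9). The share was 83.3% (81.6 to 84.9) in the other whole-brain peaks. Of the flank windows, 78.2% held UWAA in Syt1 and 66.8% around the other whole-brain peaks, so the share was higher in Syt1 beside the peaks as well. All 3 Syt1 peaks without UWAA lay in the dense stretch of intron 2. The Syt1 interval takes peaks as independent and, as they came in groups, is too narrow. The number of starts per window had a median of 4 and reached 9, beside a median of 3 and a highest count of 17 in the other whole-brain peaks. High counts are therefore not particular to Syt1. Among 4995 consecutive windows of 101 nt tiled over the Syt1 introns, the median was 1, 12.4% held at least 4 and 1.04% held at least 7, whereas 10 of the 55 peaks (18.2%) held at least 7.

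As a dimer can contact a pair of elements, windows were also searched for UWAA copies with at least 15 nt between the outermost ones. Such a pair lay in 39 of 55 Syt1 peaks (70.9%, exact 95% interval 57.1 to 82.4, again with peaks taken as independent) and in 45.5% of their flanks. The other whole-brain peaks had pairs in 63.8% (61.7 to 66.0) and their flanks in 32.3%. The number of UWAA starts and the log2 fold change of a peak were only loosely related across the 55 Syt1 peaks (Pearson's r = 0.19, Spearman's rho = 0.18), which come from the same libraries and 1 transcript. The 8 peaks with a log2 fold change of at least 3 had 4.59 ± 2.56 starts per 100 positions and the other 47 had 3.91 ± 2.47.

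Repeats made up a minor part of the Syt1 peaks. At least 50% of the bases were repeat-masked in 7 of 55 whole-brain peaks (12.7%, exact 95% interval 5.3 to 24.5), beside 14.3% of the other whole-brain peaks. UWAA was present with and without repeats, at 3.50 ± 2.03 starts per 100 positions in those 7 peaks and 3.18 ± 2.33 in the 17 peaks with no masked base. No Syt1 peak contained a stretch of 10 nt identical to the sequencing adaptors, which 20 other whole-brain peaks did.

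The 6 hippocampal Syt1 peaks were weaker by the authors' p than those of whole brain. Their log2 fold changes were 3.20, 2.44, 2.23, 2.18, 2.15 and 2.11. The −log10 p was 2.55 for the first and between 0.740 and 1.15 for the other 5, whereas whole-brain Syt1 peaks ranged from 2.94 to 17.0. The list as a whole showed the same, with a median −log10 p of 1.75 in hippocampus and 4.32 in whole brain. By −log10 IDR the peaks stood at 2.32 to 2.85 in hippocampus. The 5 peaks of low −log10 p are thus in the list by fold change and IDR. By p alone they were only weakly set apart from input, which limits what follows on them. The log2 fold change of 3.20 belongs to the peak inside peak A, so that the strongest Syt1 peak lay at the same place in both tissues.

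Of the 6 hippocampal peaks, 3 overlapped a whole-brain peak, each over its full length. The peak inside peak A had a log2 fold change of 3.20 in hippocampus and 4.50 in whole brain. Peak E had 2.18 and 3.47, and peak D had 2.15 and 2.67. All 3 whole-brain values were higher, and as both lists were selected on these values no more is read from them. The other 3 hippocampal peaks lay 77 nt, 446 nt and 3485 nt from the nearest whole-brain peak. Hippocampal Syt1 peaks held 5.78 ± 3.33 UWAA starts per 100 positions at the centre and 1.70 ± 0.95 in the flanks, and all 6 were above their own flanks. The other 172 hippocampal peaks had 2.43 ± 2.74 and 1.66 ± 1.28. Not all of those are intronic, and the 103 other intronic peaks of protein-coding genes had 3.16 ± 2.91 and 1.82 ± 1.45. Of the 172 peaks, 76 were above their own flanks and 73 below, and of the 103 intronic ones 57 were above and 35 below. A and U made up 69.3% of the bases at the hippocampal Syt1 peaks and 57.3% in their flanks. From base shares alone, 3.65 starts per 100 positions would have been counted at these peaks and 1.58 in their flanks. The 6 Syt1 windows held 10, 9, 6, 4, 3 and 2 starts, in part within repeats, since every one of these peaks had masked bases and 2 were at least 50% masked.

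The other 4 genes held 8 whole-brain peaks in all, each within a single long intron and none in the hippocampal list. The log2 fold changes of Syn1 were 2.33, 2.21, 3.81 and 2.23 from 5′ to 3′, within intron 5 of Syn1-201 (chrX:20860511-20921004, minus strand). Intron 5 has 41.2 kb and makes up 72.0% of the intronic length of the gene, and the peaks lay 31.8 to 35.5 kb from the gene start and 17896 nt or more from an exon. The third ranked 79 in the whole-brain list by fold change, the highest of these 8 peaks, although its −log10 p was 3.58. The first pair was wholly repeat-masked, and the second of that pair held no UWAA near its centre.

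Snap25 (chr2:136713453-136782428, plus strand) held peaks with log2 fold changes of 2.38 and 2.15 in intron 1, with centres 338 nt apart and at least 10015 nt before exon 2. Snap25 transcripts differ by a pair of mutually exclusive versions of exon 5, each 118 nt long, and the nearer of these lay 23.7 kb from the peaks. The single Syn2 peak (chr6:115134902-115282006, plus strand) had a log2 fold change of 2.14 and a −log10 p of 2.95, and lay in the 100.6 kb intron 1, 38034 nt from an exon. The single Sv2b peak (chr7:75114894-75309262, minus strand) had a log2 fold change of 2.93 and a −log10 p of 8.84, and lay in the 102.0 kb intron 1, 32073 nt from an exon. The intron with peaks was the longest of its gene in all 4.

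**Figure D4:**
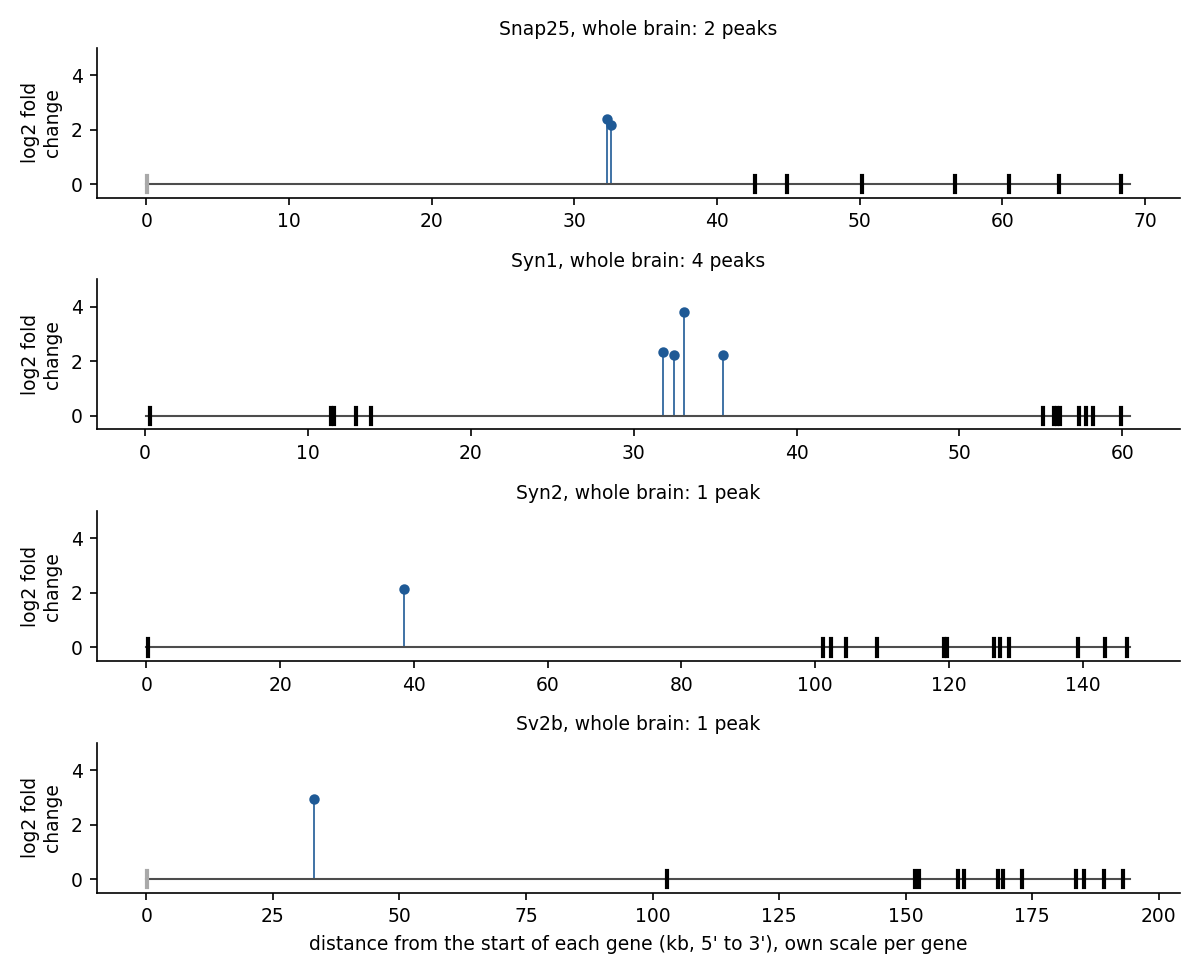
Whole-brain SLM2 eCLIP peaks of Snap25, Syn1, Syn2 and Sv2b, with distance from the start of each gene in kb on the x axis and the authors' log2 fold change over input on the y axis. Points are peaks and vertical bars exons of the principal transcript (black with coding sequence, grey without), and in each gene all peaks lie in 1 intron, at 32.3 to 32.6, 31.8 to 35.5, 38.6 and 33.1 kb.

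The UWAA density at these 8 peaks varied about as much between peaks as in Syt1. The mean was 3.32 ± 2.09 starts per 100 positions at the centres and 2.17 ± 1.58 in the flanks, with 4 peaks above and 4 below their own flanks. The Sv2b peak was richest, at 6.12 beside 0.510 in its flanks and 1.03 over the introns of the gene. The Syn2 peak had 5.10 beside 2.55 in its flanks. The Snap25 peaks averaged 3.06 beside 3.83 in their flanks, and both exceeded the 1.43 of Snap25 introns. The Syn1 peaks averaged 2.30 beside 1.66 in their flanks and 1.19 in Syn1 introns. The window held 1 or more UWAA in 7 of the 8 (87.5%, exact 95% interval 47.3 to 99.7), beside 83.3% of the other whole-brain peaks. Of the 16 flank windows of these 8 peaks, 11 held UWAA. At least 50% of the bases were repeat-masked in 3 of the 8, beside 14.3% of the other whole-brain peaks.

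The wider set of vesicle and release genes was examined in 7 lists with 116 genes, 114 of them found among protein-coding genes. In whole brain 11 of 114 (9.65%, exact 95% interval 4.92 to 16.6) held a peak, beside 1.92% of all protein-coding genes. Long genes hold peaks more often, and all 11 were at least 50 kb long. Among list genes of that length the count was 11 of 52 (21.2%, 11.1 to 34.7), beside 7.35% of protein-coding genes of at least 50 kb. As 5 of the 11 are the genes chosen because they hold peaks, the count without them, 6 of 47 (12.8%, 4.83 to 25.7), lay nearer to that background, which is within its interval. In hippocampus 3 of 114 list genes held a peak, beside 0.378% of protein-coding genes, and 3 of 52 of at least 50 kb, beside 1.36%. Syt1 is among them, and without the chosen genes the count was 2 of 47 (4.26%, 0.520 to 14.5), an interval that also holds the background. The backgrounds were not matched for expression, which the peak lists do not measure.

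The relatives of the 5 genes were mostly without peaks, as are most genes (background shares above). Syt1 was the only one of 17 synaptotagmin genes with a peak in either tissue, and 8 of the other 16 were at least 50 kb long, too few for their lack of peaks to stand apart from the 7.35% of such genes with one. Snap25 was the only one of 16 SNARE genes with a peak and also the only one of at least 50 kb. Of the synapsins, Syn3 held no peak over 443.8 kb, and of the SV2 family neither Sv2a (14.4 kb) nor Sv2c (178.0 kb) held one. Absence from a list says only that no peak passed the authors' limits there.

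Of the other list genes with peaks, 4 came from the list of SNARE regulators, which has 26 genes. Of these 26 genes, 15 were at least 50 kb long, and 4 of the 15 held a whole-brain peak, beside 7.35% of protein-coding genes of that length. The count is small and was not tested. Stxbp5l, which encodes tomosyn-2, a protein that binds syntaxin and SNAP-25, held 14 whole-brain peaks, the strongest at a log2 fold change of 4.05, and 1 hippocampal peak at 2.90. The active zone scaffolds Rims1 and Rims2 held 7 and 6 whole-brain peaks, the strongest at 3.66 and 3.40. Cadps, a priming factor of dense-core vesicles, held 1 peak in each tissue, at 2.99 in whole brain and 2.24 in hippocampus. Svop, which encodes an SV2-related vesicle protein, and Amph, which encodes the endocytic protein amphiphysin, held 1 whole-brain peak each, at 3.46 and 2.62. None of 12 genes of the vesicular proton pump held a peak, but only 3 of them were at least 50 kb long, and at the background shares above no peak is an ordinary count. UWAA density exceeded that of the flanks in Stxbp5l (4.88 and 2.62), Rims1 (4.96 and 1.82), Rims2 (3.74 and 2.81), Cadps (2.04 and 1.53) and Amph (6.12 and 3.57), and was lower in Svop (2.04 and 4.08).

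Among the 60 protein-coding genes with peaks in both tissues, those most like Syt1 were sought by distance in log2 peaks per 100 kb over the 2 tissues. The nearest was Gpm6a, a neuronal membrane glycoprotein gene, with 9 whole-brain peaks and 1 hippocampal peak (distance 0.46). Gria2, which encodes the AMPA receptor subunit GluA2, followed with 12 and 1 (0.52), and Nrxn2, which encodes a presynaptic adhesion molecule, with 10 and 2 (0.62). Pex5l, which encodes an auxiliary subunit of HCN channels, had 13 and 2 (0.70). The next gene, Rbfox3, which encodes the neuronal splicing factor NeuN, was clearly farther, with 102 and 3 (1.38). UWAA separated it from Syt1 as well. Rbfox3 peaks averaged 0.450 UWAA starts per 100 positions and their flanks 0.600. The other 4 genes had 3.47 to 4.79 at their peaks and 1.38 to 3.34 in their flanks. Gpm6a, with 3.85 at peaks and 3.34 in flanks, was little above its flanks.

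**Figure D5:**
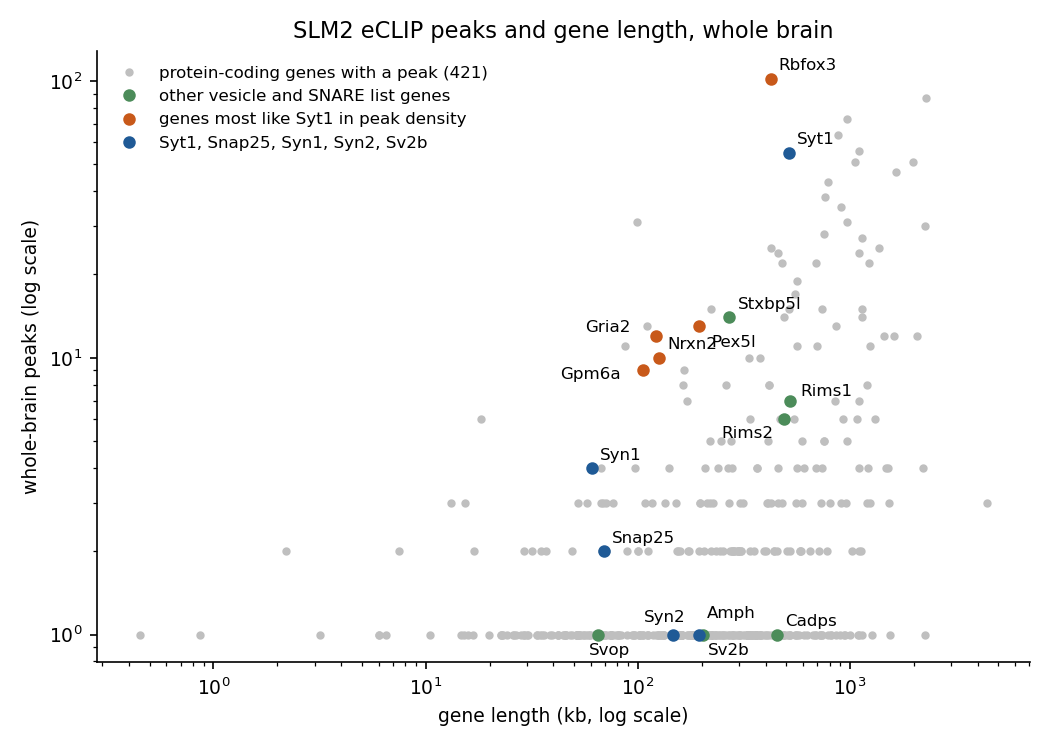
Whole-brain peaks per gene (y axis, log scale) against gene length in kb (x axis, log scale) for the 421 protein-coding genes with a peak. Blue points are Syt1, Snap25, Syn1, Syn2 and Sv2b, green points other vesicle and SNARE list genes, and orange points the genes most like Syt1 in peaks per 100 kb, and Syt1 with 55 peaks in 513.3 kb lies above most genes of its length.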

How the data were processed

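SLM2 eCLIP and size-matched input were sequenced from WT whole brain and hippocampus. The submitters' processing notes name cutadapt 3.4 (trimming), STAR 2.7.9 (mapping, build mm10) and UMI-tools 1.1.1 (duplicates). Peaks were called by the authors with CLIPper, and IDR joined both replicates of each tissue in 1 list. The deposited lists give for each peak a log2 fold change of eCLIP over input, a −log10 p and a −log10 IDR, used as a score. They carry no column names, and these meanings were taken from the authors' column names in a table held in part and from the ranges of the values. Depth per peak is not in the lists, so values cannot be weighted by it.

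Peak centres were matched to GENCODE vM21 (55450 genes, 21951 protein-coding), and sequence was read from GRCm38. All 2235 peaks lay within the chromosomes of that build. Exons and introns follow the transcript tagged principal, basic and CCDS with the longest coding sequence. UWAA was counted within 50 nt of the centre, and repeats are the masked bases of the NCBI assembly. Shares carry exact 95% binomial (Clopper-Pearson) intervals. Those over peaks take peaks as independent and are too narrow where peaks come in groups. The genes, the gene lists and the rule for named genes and peaks were chosen with earlier results of these data known. That rule covers the 5 genes, list genes with a peak, the 5 genes most like Syt1, the 3 strongest Syt1 peaks, its shared hippocampal peaks, the peak nearest an exon and the strongest peak of each other gene. The motif count was tested on simulated data. Analyses used Python 3.11.15, scipy 1.17.1, pysam 0.24.0, samtools 1.23.1 and matplotlib 3.10.9.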

Additional observations from a re-analysis of the deposited data

How the results depend on the processing

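The values were recomputed under 75 alternatives for 24 results, and 47 moved by less than the spread over peaks, the interval of a share or 1.5 times for a count. The spread over peaks is wide, so some of these still moved a lot. The excess of UWAA over the flanks, 2.00 starts per 100 positions for whole-brain Syt1, was 1.27 with 100 nt on each side and 1.36 around the 5′ end. For hippocampal Syt1 it was 4.08 and became 2.53, 2.21 and, with at most 20% masked bases (1 peak), 2.04. For the other 4 genes it was 1.15 and became 2.17 around the 5′ end, 2.30 with at most 20% masked bases (2 peaks) and 2.04 at the stricter fold change (1 peak). None of these differences changed direction. No paired analysis was possible because the 2 replicates of each tissue were merged into 1 list. With a log2 fold change of at least 3, Syt1 kept 8 whole-brain peaks and 1 hippocampal peak, Syn1 kept 1, and Snap25, Syn2 and Sv2b kept 0. With a −log10 IDR of at least 3, Syt1 kept 10 in whole brain and 0 in hippocampus, and the other 4 genes kept 0. With a −log10 p of at least 3, hippocampal Syt1 and Syn2 kept 0. Windows of 25 nt held UWAA in 80.0% of Syt1 peaks, and among windows with at most 20% masked bases UWAA was in 100% of those of the other 4 genes (2 peaks). For hippocampal Syt1, the excess of UWAA over the flanks was 8.67 under the stricter fold change, from 1 peak. Any masked base was present in 38 whole-brain and 6 hippocampal Syt1 peaks and in 6 peaks of the other 4 genes. Within 500 nt, 5 of 6 hippocampal peaks had a whole-brain neighbour. Joined within 1000 nt, peaks formed 31 sites in Syt1, 2 in Syn1 and 1 in Snap25. In whole brain 6 list genes held at least 2 peaks and 6 a peak under the stricter fold change, and in hippocampus 1 and 1. Leaving out flanks that overlap a peak was chosen after seeing the data. Without counts per replicate, depth limits what can be said of any single peak.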
